A study of Rattus norvegicus with 17 samples.

Results

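The transcript levels in the livers of 3 male Harlan Sprague-Dawley rats dosed with isopropylated phenol phosphate (IPP) at 153 mg/kg were set against those of 5 rats dosed with corn oil alone. These are 8 of the 17 arrays of a dose series, chosen by the dose in their labels. IPP is an isomer mixture of aryl phosphate esters used as a flame retardant and plasticizer. Every rat received its gavage in corn oil on each of 4 days, and the left liver lobe was sampled on day 5. The daily amount of 153 mg/kg is 0.338 mmol/kg per the treatment protocol. The other 9 rats, 3 each at 76.5, 305.5 and 611 mg/kg, entered the same fit to estimate the spread, and the groups at 76.5 and 305.5 mg/kg are set beside 153 mg/kg at the end. Each array holds the RNA of 1 rat. The labels give neither the age of the rats nor the hour of necropsy.

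Both of the largest rises, Dbp and Nr1d1, were genes of the hepatic circadian clock. In that clock BMAL1, paired with CLOCK or NPAS2, activates genes through E-box sequences, among them the Period and Cryptochrome genes, whose products inhibit the pair, the REV-ERB genes Nr1d1 and Nr1d2, and Dbp. The REV-ERB proteins repress Bmal1 through ROR elements, and the PAR bZIP factors DBP and TEF share D-box sites with the repressor NFIL3. Other genes described here belong to programmes by which a hepatocyte answers foreign chemicals, through the receptors CAR and PXR, or a shortage of amino acids and other stresses, through the factor ATF4.

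Values are log2 RMA values, so a difference of 1 is a doubling. The medians of the 17 arrays lay between 6.288 and 6.403, and the number of arrays limits the precision. The array control for RNA integrity, the 3' minus 5' difference of the GAPDH probe sets, was 1.131 to 1.556 in vehicle and 0.928 to 1.408 at 153 mg/kg, overlapping ranges. That of actin was 2.292 to 2.899 and 1.925 to 2.648. With the GAPDH difference as a covariate, all 58 higher and all 48 lower calls given below were made again, among 129 and 70. The 3 arrays that stand apart in the series (2 at 76.5 and 1 at 611 mg/kg) are not among the 8 compared. None of the 136 pairs of arrays held identical values.

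At 153 mg/kg, 58 of 14217 genes rose and 48 fell against vehicle (limma, Benjamini-Hochberg adjusted p under 0.05). This is 0.746% of the genes tested, 0.408% higher and 0.338% lower, and it is the background for the counts of group members below. In each of the 106 genes all 3 treated rats lay outside the range of the 5 vehicle rats, which held for 12.7% of all genes. Of the called genes 34 differed by at least 1 on the log2 scale, 21 higher and 13 lower. The median size was 0.88 among the rises and 0.79 among the falls. Over all genes the median difference was 0.01, the median SE 0.11, and 1688 genes (11.9%) had an unadjusted p under 0.05. The split of the calls moved with the scaling of the arrays: 54.7% were rises, against 40.8% after median centring and 42.2% after a repeated quantile normalization. The counts also moved with single rats. When treated rat 2 was left out they were 18 higher and 11 lower. Leaving out treated rat 1 gave 25 and 17, and leaving out treated rat 3 gave 34 and 33. Of the vehicle rats, omission of rat 1 gave 35 and 28, of rat 2 38 and 32, and of rat 4 36 and 32. Without the 3 arrays that stand apart the counts were 209 and 105 and included all 106 genes.

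**Figure D1:**
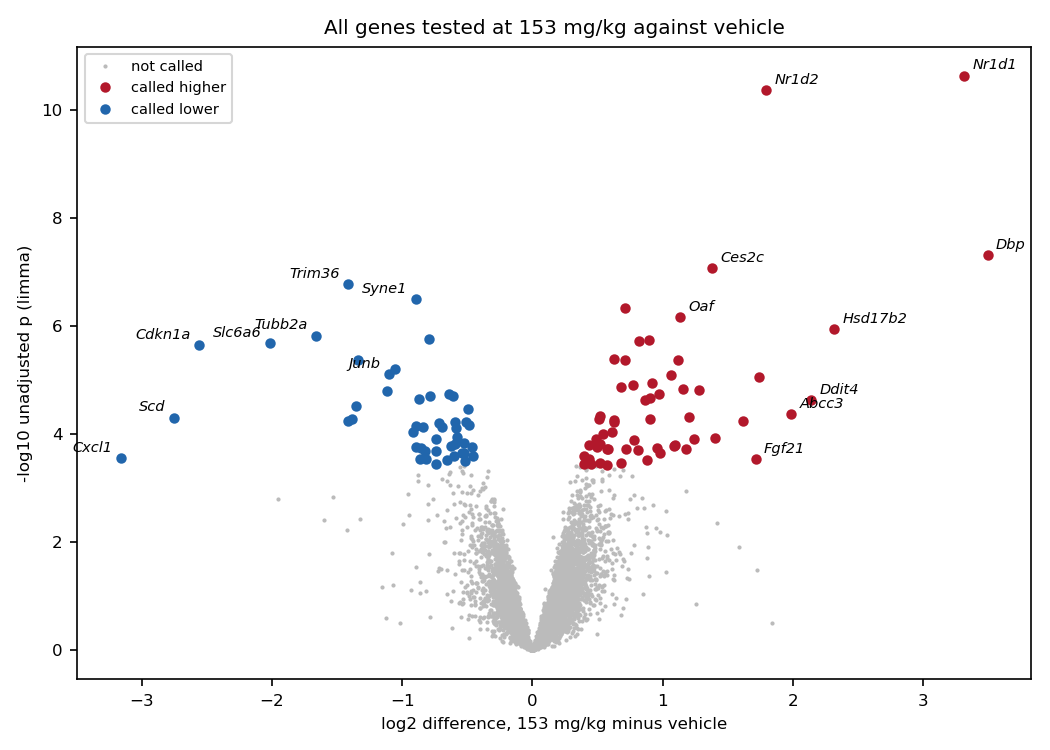
Log2 difference (153 mg/kg minus vehicle, x axis) against -log10 of the unadjusted limma p (y axis) for each of the 14217 genes, with the 58 higher calls in red and the 48 lower calls in blue. Nr1d1 and Nr1d2 have the smallest p-values, Dbp the largest rise (3.50) and Cxcl1 the largest fall (-3.16).

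Of 26 measured clock genes in the core and output lists, 5 rose and 4 fell. The rises were Dbp, Nr1d1, Nr1d2, Per3 and Tef, and the falls were Nfil3, Bmal1, Cry1 and Npas2. Levels of clock genes vary with the hour, which the labels do not give, and whether it differed between the groups was not tested. Among the output factors, Dbp, a transcriptional activator, stood at 6.03, 5.94, 5.96, 5.72 and 6.29 in the vehicle rats and at 9.98, 10.05 and 8.42 in the treated rats. Treated rat 3 was lower than the other two but still above every vehicle rat. The difference was 3.50 ± 0.38 (SE, n = 3 against 5), an 11.3-fold rise with adjusted p = 0.000226. Tef, its paralogue, was 8.36 to 8.57 in vehicle and 9.37, 9.56 and 9.09 after dosing, a rise of 0.90 ± 0.13 with adjusted p = 0.002. The repressor Nfil3, their competitor, went the other way. It read 10.28, 10.27, 10.67, 10.61 and 10.78 in vehicle and 8.82, 9.20 and 9.29 at 153 mg/kg, and fell by 1.42 ± 0.27 with adjusted p = 0.0164. The call for Nfil3 was lost without treated rat 1 (adjusted p = 0.11) or rat 2 (0.0785). That for Tef was lost when the gene's probe sets were averaged (0.59, adjusted p = 0.141), since the other probe sets ranged from -0.02 to 0.89.

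In the repressor arm, Nr1d1 (REV-ERB alpha) was 6.15, 5.66, 5.68, 5.61 and 6.27 in vehicle and 9.49, 9.37 and 8.72 in the treated rats, 2 groups far apart. It rose by 3.32 ± 0.22, or 9.95-fold, with adjusted p = 3e-07. Nr1d2 (REV-ERB beta) was 8.13, 8.40, 8.33, 7.94 and 8.24 in vehicle and 10.00, 10.17 and 9.84 at 153 mg/kg. Its rise of 1.80 ± 0.12 was 3.48-fold, with the same adjusted p. Both calls were made in every alternative fit, Nr1d1 between 3.17 and 3.55 and Nr1d2 between 1.27 and 1.88. The other probe sets of Nr1d2 ranged from 0.19 to 1.83. Per3, a Period gene, was 4.87 to 5.85 in vehicle and 7.39, 7.55 and 6.47 in the treated rats. It rose by 1.74 ± 0.28 (adjusted p = 0.00541; 0.0599 without treated rat 2), but its second probe set differed by only 0.05, and with probe sets averaged the rise was 0.90. Per1 and Per2 differed by 0.11 ± 0.15 (adjusted p = 0.805) and -0.20 ± 0.11 (adjusted p = 0.49) and were not called.

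In the activating arm, Bmal1 was 8.58, 8.52, 8.71, 8.43 and 8.36 in the vehicle rats and 6.91, 6.69 and 7.82 in the treated rats. Again treated rat 3 lay closest to vehicle. The gene fell by 1.38 ± 0.26, or 2.61-fold (adjusted p = 0.0161; 0.103 without treated rat 1 and 0.164 without rat 2). Npas2, which can take the place of CLOCK, was 8.88, 8.97, 8.90, 8.90 and 9.07 in vehicle and 7.84, 7.86 and 8.47 after dosing. It fell by 0.89 ± 0.17 (adjusted p = 0.0182; 0.124 without treated rat 1 and 0.168 without rat 2). Clock itself differed by -0.31 ± 0.13 (adjusted p = 0.377). Of the cryptochromes, Cry1 was 8.50, 8.42, 8.78, 8.11 and 8.26 in vehicle against 7.32, 7.11 and 7.65, a fall of 1.05 ± 0.16 (adjusted p = 0.0044; 0.0543 without treated rat 2). Its paralogue Cry2 was higher by 0.74 ± 0.22 without passing the test (adjusted p = 0.177; 0.0177 without the 3 arrays that stand apart). Of the 9 called clock genes, all 9 had treated rat 3 as the treated rat nearest the vehicle mean. Over all 106 called genes rat 3 was nearest in 47, rat 1 in 36 and rat 2 in 23. With rat 3 left out each of the 9 was still called.

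**Figure D2:**
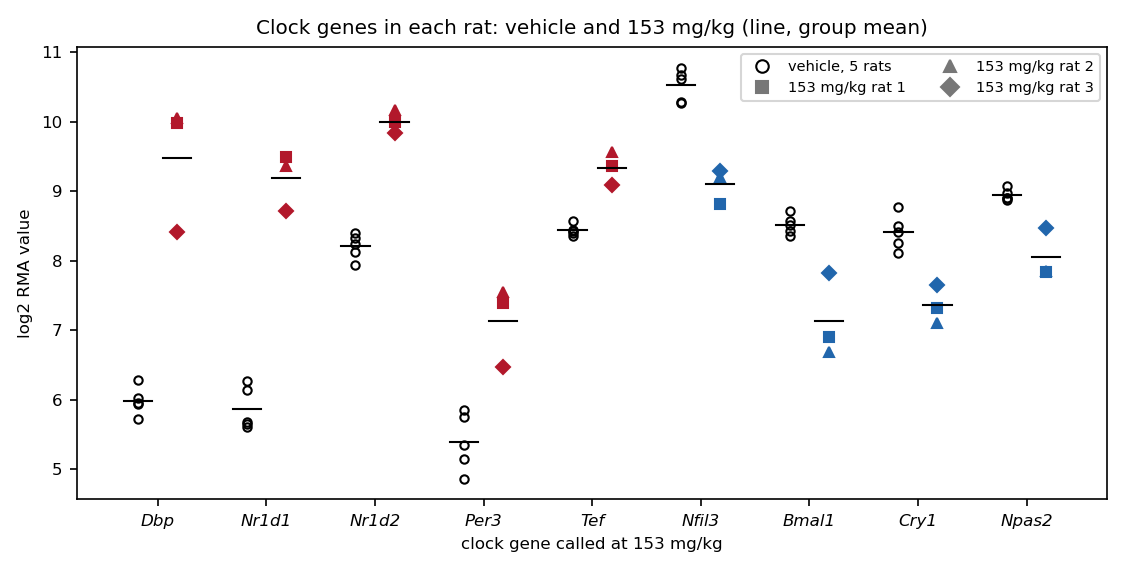
Log2 RMA value (y axis) of the 9 called clock genes (x axis) in each of the 5 vehicle rats (open circles) and the 3 rats at 153 mg/kg (filled symbols, red for genes called higher and blue for genes called lower), with a line at each group mean. No treated rat overlaps the vehicle range of any of the 9 genes, and rat 3 (diamonds) is the treated rat nearest vehicle in each.

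In the core list 13 of 16 genes were measured, 3 rose, 3 fell and the median difference was -0.20. In the output list all 13 were measured, 2 rose, 1 fell and the median was -0.06, beside 0.01 over all genes. Lpin1, a phosphatidate phosphatase with a daily rhythm in liver, read 9.64, 10.28 and 10.47 in treated rats against 10.44 to 12.13 in vehicle, and its difference of -1.53 ± 0.40 was not called (adjusted p = 0.113). It was called without the 3 arrays that stand apart (0.0245) or without vehicle rat 5 (-1.83, adjusted p = 0.0238). Hlf, the third PAR bZIP factor, differed by -0.12 ± 0.18 (adjusted p = 0.829).

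The promoter sequences of Bmal1 and Tef show the kind of element through which these factors are known to act. The 250 bases before the transcript start are printed 5' to 3' from the RefSeq promoter table for rat (GRCr8), Bmal1 at chr1:176766078-176766327 on the plus strand and Tef at chr7:115206577-115206826 on the plus strand. Capitals mark a ROR element core (TAGGTCA) in Bmal1 and an E-box (CACGTG) in Tef.
Bmal1: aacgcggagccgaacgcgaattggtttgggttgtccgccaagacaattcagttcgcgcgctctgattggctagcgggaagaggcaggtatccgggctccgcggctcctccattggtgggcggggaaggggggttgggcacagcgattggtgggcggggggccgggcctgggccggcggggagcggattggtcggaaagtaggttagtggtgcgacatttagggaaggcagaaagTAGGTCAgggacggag
Tef: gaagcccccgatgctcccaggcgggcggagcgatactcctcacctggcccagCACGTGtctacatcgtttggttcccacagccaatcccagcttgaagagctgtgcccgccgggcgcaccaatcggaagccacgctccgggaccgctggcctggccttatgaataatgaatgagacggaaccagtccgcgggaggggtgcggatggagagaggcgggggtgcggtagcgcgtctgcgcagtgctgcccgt
The motif of Bmal1 covers bases 235 to 241 and that of Tef bases 53 to 58, counted from the first base printed. Searched on both strands, windows of 300 bases (250 before and 50 after the start) held CACGTG in 6.42% of 33469 windows and TAGGTCA in 2.63%. The second ROR core, TGGGTCA, was in 4.09% and the D-box TTATGNAA in 3.66%. Exactly 1 window was found for 84 of the 106 called genes. CACGTG was in 7 of 48 windows of genes that rose and in 1 of 36 of genes that fell, and TTATGNAA in 3 and 0. The shares over all windows were not limited to genes with exactly 1 window or to genes on the array, so the sets differ. Of 9 measured core clock genes with exactly 1 window, 0 held CACGTG, 1 (Bmal1) TAGGTCA and 1 (Per2) TTATGNAA. Of 9 output genes 3 held CACGTG (Tef, Bhlhe40 and Bhlhe41) and 0 either of the others. A match describes the letters of the window only. None of the motifs searched contains another.

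Genes of the ATF4 and amino acid response formed the second group with several calls. All 20 listed genes were measured, 4 rose, 0 fell, and 15 lay above 0, with a median difference of 0.36 beside 0.01 over all genes. The other 5 lay below 0, the lowest at -0.33, and 1 had all treated rats below the vehicle range. Without the 3 arrays that stand apart 1 listed gene, Cth, was called lower (-0.33, adjusted p = 0.0364). Ddit4, an inhibitor of mTORC1, was 6.78, 7.02, 7.20, 7.64 and 6.97 in vehicle and 9.14, 9.13 and 9.52 in treated rats. The groups did not overlap, and the rise was 2.14 ± 0.37, or 4.41-fold (adjusted p = 0.009; 0.0544 when treated rat 2 or rat 3 was left out). Chac1, which degrades glutathione, was 7.84, 7.82, 8.05, 7.44 and 7.71 against 8.70, 9.46 and 10.01. It rose by 1.62 ± 0.30 (adjusted p = 0.0164; 0.106 without treated rat 2 and 0.11 without rat 3). Trib3, a pseudokinase that feeds back on ATF4, was 8.38, 9.21, 8.59, 8.82 and 7.95 against 9.78, 10.48 and 9.73. These groups lay closest together of the 4, and the rise was 1.40 ± 0.28 (adjusted p = 0.0264). The Trib3 call was lost when vehicle rat 1 (0.0703) or 5 (0.051) or treated rat 1 (0.0699) or 2 (0.241) was left out. Fgf21, a hepatic hormone of fasting and stress that is also a PPARA target, was 7.86, 8.63, 8.91, 8.01 and 8.22 against 9.84, 10.12 and 10.16. It rose by 1.71 ± 0.38 (adjusted p = 0.0426), a call lost without vehicle rat 1, 2, 4 or 5 or any treated rat, with adjusted p from 0.0702 to 0.237. The amino acid enzyme genes Asns, Psat1 and Phgdh differed by 0.74 ± 0.31, 0.33 ± 0.33 and 0.14 ± 0.25, with adjusted p of 0.368, 0.729 and 0.868. Ddit3, the stress factor CHOP, differed by 0.57 ± 0.19 (adjusted p = 0.253).

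The promoters of Chac1, Trib3 and Fgf21 are shown because each holds the letters of an ATF4 element (TGATGNAA), here in reverse complement and in capitals. Fgf21 also holds an E-box, likewise in capitals. The 250 bases before the start are from the same RefSeq table (GRCr8), 5' to 3', at chr3:126795881-126796130 (plus strand), chr3:161275534-161275783 (minus strand) and chr1:105221377-105221626 (minus strand).
Chac1: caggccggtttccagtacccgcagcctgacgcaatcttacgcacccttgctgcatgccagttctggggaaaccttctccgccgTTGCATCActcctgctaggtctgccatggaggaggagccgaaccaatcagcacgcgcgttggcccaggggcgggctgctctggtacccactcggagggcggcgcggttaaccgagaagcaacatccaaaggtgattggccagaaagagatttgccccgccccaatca
Trib3: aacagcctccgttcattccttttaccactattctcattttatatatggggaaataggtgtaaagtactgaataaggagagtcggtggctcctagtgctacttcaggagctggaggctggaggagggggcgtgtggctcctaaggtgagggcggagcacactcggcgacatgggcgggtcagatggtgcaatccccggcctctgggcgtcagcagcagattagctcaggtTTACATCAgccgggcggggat
Fgf21: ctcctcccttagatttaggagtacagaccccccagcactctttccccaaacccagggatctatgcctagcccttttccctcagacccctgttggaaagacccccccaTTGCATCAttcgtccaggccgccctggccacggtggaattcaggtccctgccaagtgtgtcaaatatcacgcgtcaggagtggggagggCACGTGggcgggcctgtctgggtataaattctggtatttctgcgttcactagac
The ATF4 letters cover bases 84 to 91 in Chac1, 230 to 237 in Trib3 and 108 to 115 in Fgf21, where the E-box covers bases 197 to 202. Of the 17 listed genes with exactly 1 window, 4 held these letters, the fourth being Nupr1 (0.54 ± 0.17, adjusted p = 0.21). The share among all 33469 windows, not limited to genes with exactly 1 window, was 3.98%. Among called genes with exactly 1 window it was 3 of 48 that rose and 1 of 36 that fell.

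Among genes that CAR and PXR are known to induce, 14 of 21 were measured, 3 rose and 0 fell, and 13 of the 14 lay above 0 with a median of 0.29. Ces2c, a carboxylesterase of the endoplasmic reticulum, was 8.98, 8.90, 8.76, 8.94 and 9.04 in vehicle and 10.07, 10.73 and 10.10 in treated rats. The vehicle rats lay close together (SD 0.10), and the rise of 1.38 ± 0.16 was 2.60-fold with adjusted p = 0.000291. It was the only one of 20 measured serine esterases called, and that list had a median of 0.05. Ugt2b1, a glucuronosyltransferase, was 12.20, 12.32, 12.25, 12.72 and 12.89 against 13.60, 13.79 and 13.41 and rose by 1.12 ± 0.17 (adjusted p = 0.00319). Abcc3, the basolateral exporter of conjugates, was 6.36, 6.92, 6.61, 6.92 and 6.66 against 9.16, 9.37 and 7.53. Treated rat 3 was again the lowest, and the rise was 1.99 ± 0.36, or 3.97-fold (adjusted p = 0.0147; 0.102 without treated rat 1 and 0.16 without rat 2). Aldh1a1 was 0.70 ± 0.16 higher without passing (adjusted p = 0.0561). The classical P450 gene Cyp3a2 differed by -0.01 ± 0.05 and the P450 reductase gene Por by 0.03 ± 0.21.

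NRF2 and glutathione genes had no call among 22 measured, with a median of 0.16 and 16 above 0. Gsta3, a glutathione transferase, was closest, at 9.26, 9.74 and 8.56 against 7.55 to 8.59 in vehicle, a difference of 1.18 ± 0.30 (adjusted p = 0.0992). Treated rat 3 overlapped the vehicle range. Without the 3 arrays that stand apart 2 genes of the list were called higher. The 7 AhR targets included Cyp1a2 at -0.13 ± 0.13 and Nqo1 at 0.34 ± 0.22, and none was called.

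Single genes of steroid, bile acid and fatty acid metabolism changed while most members of their lists were not called. Hsd17b2, which inactivates estradiol and testosterone, was 10.39, 10.37, 10.44, 10.05 and 10.92 in vehicle and 13.09, 12.81 and 12.36 after dosing. The rise of 2.32 ± 0.32 was 4.99-fold with adjusted p = 0.00177, and it was the single call among 14 measured steroid genes, whose median was -0.02. Cyp8b1, the sterol 12-alpha-hydroxylase that sets the share of cholic acid, was 11.77, 11.64, 11.62, 11.75 and 11.76 against 12.64, 12.60 and 12.65. The groups were tight, with SDs of 0.07 and 0.03, and the rise was 0.92 ± 0.15 (adjusted p = 0.00674). It was the single call among 17 bile acid genes. Cyp7a1, the rate-limiting enzyme of bile acid synthesis, read 12.29, 11.31 and 11.94 against 9.33 to 10.73 in vehicle. Its groups did not overlap, but the difference of 1.72 ± 0.74 was not called (adjusted p = 0.371).

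Of 19 lipogenic genes, Thrsp rose and Scd fell. Scd, the stearoyl-CoA desaturase, was 11.11, 11.66, 11.91, 9.45 and 10.81 in vehicle and 8.98, 6.94 and 8.79 in treated rats. Vehicle rat 4 came close to treated rat 1, and the gene fell by 2.75 ± 0.51, or 6.74-fold (adjusted p = 0.0161; -2.11 and 0.164 without treated rat 2). Thrsp (Spot 14), a lipogenic gene under thyroid hormone control, was 10.85, 11.08, 11.06, 10.90 and 11.62 against 12.36, 11.78 and 12.71. It rose by 1.18 ± 0.25 (adjusted p = 0.0323), and the call was lost on leaving out vehicle rat 1, 2, 3 or 4 or treated rat 1 or 3, with adjusted p from 0.0625 to 0.19. Fasn (0.07 ± 0.29) and Srebf1 (0.04 ± 0.36) were not called, and the list median was -0.06. Of 7 thyroid hormone targets Thrsp was the only call, with Dio1 at 0.18 ± 0.11. Among 27 PPARA targets, Cyp4a1, a fatty acid omega-hydroxylase, was 11.85, 11.97, 11.90, 11.60 and 11.96 against 11.39, 11.00 and 11.02. It fell by 0.72 ± 0.14 (adjusted p = 0.0166; 0.164 without treated rat 2 and 0.0979 without rat 3), while Fgf21 rose as given above. The list median was -0.09, with 19 of 27 below 0.

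In the p53, immediate early, glucocorticoid and interferon lists every called member fell. Cdkn1a, the cyclin-dependent kinase inhibitor p21, was 10.95, 11.33, 10.92, 11.49 and 10.16 in vehicle and 8.47, 8.06 and 8.70 in treated rats. It fell by 2.56 ± 0.37, or 5.90-fold (adjusted p = 0.00213), and kept the call in every alternative fit, between -2.76 and -1.69. Cdkn1a is a p53 target, and the other 11 measured targets were not called, with Mdm2 at 0.10 ± 0.13 and Ccng1 at 0.06 ± 0.16. The median of the p53 list was 0.08 and 7 of the 12 measured members lay above 0, opposite to Cdkn1a. Among 18 immediate early and chemokine genes 2 fell, the median was -0.08, and 11 lay below 0 and 7 above. Cxcl1, a neutrophil chemokine, was 10.78, 11.43, 11.63, 12.53 and 11.46 against 8.79, 8.74 and 7.68, with no overlap. It fell by 3.16 ± 0.69, or 8.95-fold (adjusted p = 0.042), and the call was lost without any 1 of the 8 rats, with adjusted p from 0.0572 to 0.194. Junb, an AP-1 subunit, was 8.97, 8.81, 9.19, 9.06 and 9.10 against 8.02, 8.08 and 7.66 and fell by 1.10 ± 0.17 (adjusted p = 0.00516). Egr1 read 9.23, 9.22 and 7.67 against 10.10 to 11.41 and was not called (-1.95 ± 0.52, adjusted p = 0.117), and Fos differed by -0.02 ± 0.13.

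Of 13 glucocorticoid-responsive genes only Tsc22d3 (GILZ) was called. It fell by 0.74 ± 0.17 (adjusted p = 0.048), from 10.59 to 11.22 in vehicle to 10.14, 10.10 and 10.06. Fkbp5 differed by -0.86 ± 0.42 (adjusted p = 0.43). The median of this list was 0.11 and 8 of the 13 members lay above 0, opposite to Tsc22d3. The Tsc22d3 call was lost without vehicle rat 1, 2, 3 or 4 or any treated rat, with adjusted p from 0.0578 to 0.236. Irf1, a transcription factor of the interferon response, was the single call among 15 genes of that list. It read 8.98, 8.76, 9.44, 9.19 and 9.36 in vehicle and 8.23, 8.48 and 8.26 at 153 mg/kg, a fall of 0.82 ± 0.17 (adjusted p = 0.0338). The Irf1 call was lost without vehicle rat 1, 3, 4 or 5 or any treated rat, with adjusted p from 0.0548 to 0.151. The list median was 0.13 and 11 of 15 members lay above 0, opposite to Irf1.

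The taurine transporter gene Slc6a6 was 10.31, 10.02, 10.16, 10.39 and 10.55 in vehicle and 8.19, 7.82 and 8.80 in treated rats. It fell by 2.01 ± 0.29, or 4.03-fold (adjusted p = 0.00205), in every alternative fit between -2.28 and -1.79. The other 5 measured taurine genes, among them the synthesis genes Csad (0.11 ± 0.11) and Cdo1 (-0.02 ± 0.06), were not called. Of 10 measured tubulins 2 fell. Tubb2a was 12.54, 12.53, 12.43, 12.49 and 12.61 against 10.43, 10.44 and 11.71, with treated rat 3 nearest to vehicle. It fell by 1.66 ± 0.23 (adjusted p = 0.002). Tuba4a was 10.94, 10.72, 10.97, 10.76 and 11.10 against 9.47, 9.66 and 10.24 and fell by 1.11 ± 0.19 (adjusted p = 0.00755; 0.0666 without treated rat 1 and 0.0674 without rat 2). Tubulin genes are near-identical in places, so signal may be shared between probe sets. Tubb4b differed by -0.63 ± 0.15 (adjusted p = 0.0598), and the list median was -0.19 with 8 of 10 below 0.

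Clpx, a mitochondrial unfoldase that acts on the heme enzyme ALAS1, was the single call among 10 heme genes. Its treated rats lay at 11.17, 11.18 and 11.18 and its vehicle rats between 11.54 and 11.84, a fall of 0.49 ± 0.09 (adjusted p = 0.0124; 0.0666 without treated rat 1 and 0.0747 without rat 2). Alas1 differed by 0.19 ± 0.13 (adjusted p = 0.594). Among 24 genes of amino acid catabolism and the urea cycle, the proline dehydrogenase gene Prodh fell by 0.60 ± 0.13 (adjusted p = 0.0396), from 10.25 to 10.91 in vehicle to 9.95, 10.09 and 9.81. Its call was lost without vehicle rat 1, 2, 4 or 5 or any treated rat, with adjusted p from 0.0565 to 0.191.

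The remaining genes among the 20 largest rises lie outside the lists. Sult1c2, a sulfotransferase, was 8.33, 8.04, 7.63, 7.71 and 7.51 in vehicle against 8.80, 9.18 and 9.29 and rose by 1.24 ± 0.25 (adjusted p = 0.0264). Oaf, a secreted protein, rose by 1.14 ± 0.15 (adjusted p = 0.00119), and its treated rats lay together at 11.86, 11.78 and 11.82. Pdzrn3, a ubiquitin ligase, rose by 1.28 ± 0.22, Sdr42e1, a putative steroid dehydrogenase, by 1.20 ± 0.22, and Tbx3, a T-box repressor, by 1.15 ± 0.19. Depp1, a gene induced by FOXO factors, and Cers6, a ceramide synthase, each rose by 1.09 ± 0.23. Of these 7, only Oaf kept its call whichever rat was left out. Sult1c2 lost it without vehicle rat 3, 4 or 5 or any treated rat (adjusted p 0.0585 to 0.168), and Pdzrn3 without treated rat 2 (0.0757). Sdr42e1 lost it without any treated rat (0.059 to 0.0928), and Tbx3 without treated rat 1 (0.0666) and with probe sets averaged (0.34, adjusted p = 0.141). Depp1 lost it without vehicle rat 1, 2, 3 or 5 or any treated rat (0.0578 to 0.164). Cers6 lost it without vehicle rat 1, 2, 4 or 5 or any treated rat (0.0584 to 0.21).

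Among the 20 largest falls outside the lists, Trim36, a ubiquitin ligase, was 5.81, 6.33, 5.69, 5.64 and 6.13 in vehicle and 4.58, 4.44 and 4.49 in treated rats. It fell by 1.42 ± 0.17 (adjusted p = 0.000473). Dusp6, a phosphatase of ERK, was 10.45, 10.75, 11.11, 10.82 and 10.92 against 8.94, 9.76 and 9.67 and fell by 1.36 ± 0.24 (adjusted p = 0.0113; 0.0912 without treated rat 1). Lgalsl, a galectin-like protein, fell by 1.34 ± 0.20 and the nuclear envelope gene Syne1 by 0.90 ± 0.11, and both kept the call in every alternative fit, Syne1 at -0.44 with probe sets averaged. The vasopressin receptor gene Avpr1a fell by 0.92 ± 0.18, the acetyltransferase gene Nat8 by 0.89 ± 0.19, the chromatin remodeller Chd9 by 0.87 ± 0.15, the proteoglycan Sdc4 by 0.86 ± 0.19 and the secreted kinase Pkdcc by 0.85 ± 0.18. Each of these 5 lost its call when single rats were left out. For Avpr1a these were vehicle rat 2 and treated rats 1 and 2 (adjusted p 0.059 to 0.213), and for Chd9 treated rat 1 (0.074). For Pkdcc they were vehicle rats 1 and 3 and every treated rat (0.0565 to 0.26). For Nat8 they were vehicle rats 1 to 4 and every treated rat (0.0547 to 0.21), and for Sdc4 all 8 rats (0.0509 to 0.224). Chd9 also lost it with probe sets averaged (-0.40, adjusted p = 0.105).

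**Figure D3:**
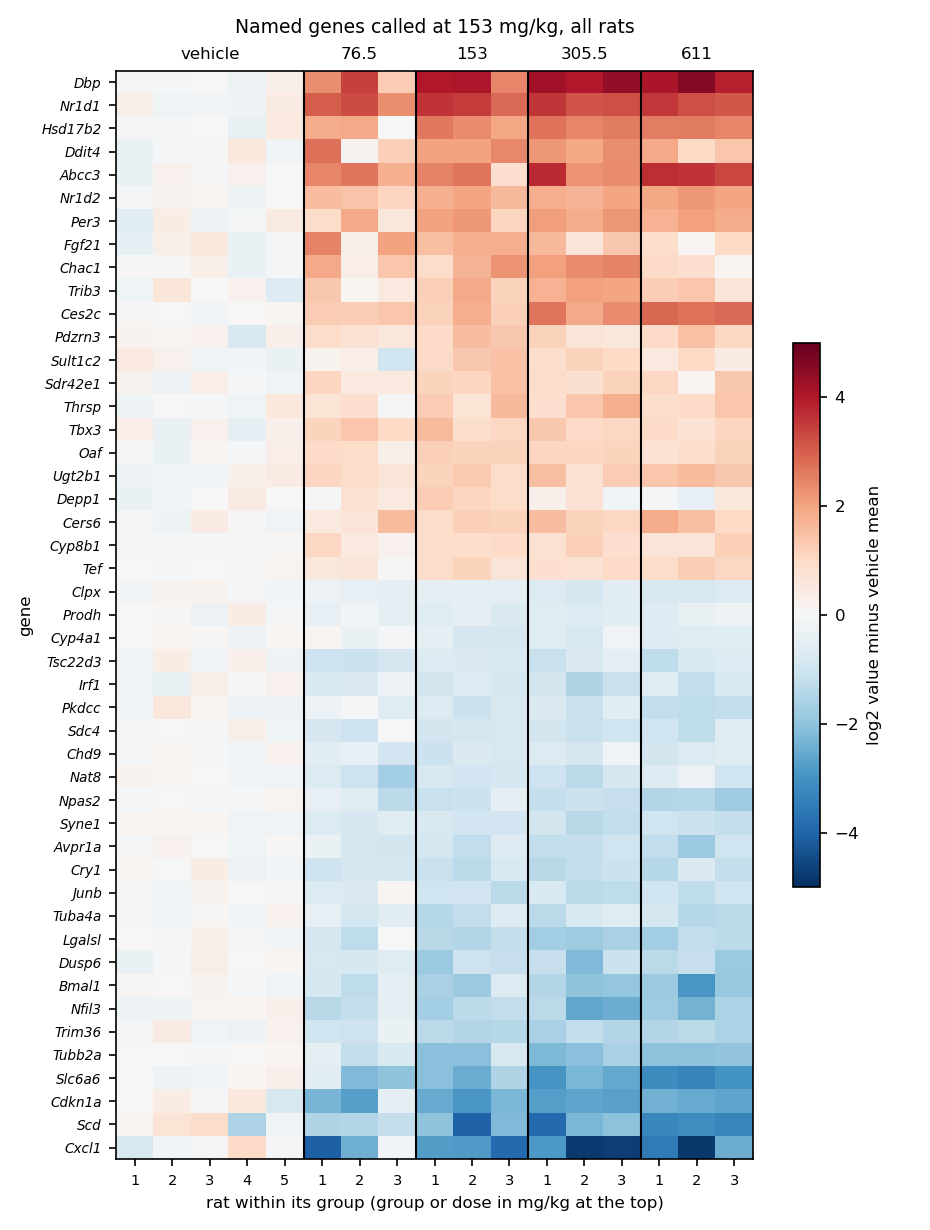
Log2 value minus the vehicle mean (colour scale) of the 47 called genes named by the rule (rows, by difference at 153 mg/kg) in each of the 17 rats (columns, by group). At 153 mg/kg all 3 columns are red for the 22 rises and blue for the 25 falls, which follows from choosing the genes by their calls at this dose.

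The other lists held no called member. The 15 genes of the unfolded protein response had a median of -0.06, and Herpud1, an endoplasmic reticulum protein, came closest at 0.54 ± 0.12 (adjusted p = 0.0561). The 17 cholesterol synthesis genes had a median of -0.03, led by Dhcr7 at -0.54 ± 0.23. The 12 genes of gluconeogenesis and insulin action had a median of 0.19. Gys2 came closest at 0.51 ± 0.16 (adjusted p = 0.196), and Pck1 differed by 0.47 ± 0.16 (adjusted p = 0.237). Of 16 genes of growth hormone and STAT5, 13 lay below 0 with a median of -0.09, and Obp3 differed by -0.80 ± 0.24 (adjusted p = 0.177). Obp3 read 12.56, 12.49 and 12.55 against 13.23 to 13.41 in vehicle, without overlap, and its other probe set differed by -0.86. It was called with the 2 groups alone (adjusted p = 3.84e-05) and with array weights (0.0385). The SE of the main fit also takes in the other doses, where the SD of Obp3 was 0.72 at 305.5 mg/kg. Of 28 cell cycle genes 19 lay below 0 with a median of -0.09. Kif20a, a mitotic kinesin, differed by -0.43 ± 0.21 (adjusted p = 0.437), and the proliferation marker Mki67 by 0.16 ± 0.24. The 17 acute phase genes had a median of 0.00. Of 11 heat shock genes 9 lay below 0 with a median of -0.25, and the mitochondrial chaperonin Hspe1 differed by -0.34 ± 0.08 (adjusted p = 0.0561). Without the 3 arrays that stand apart, Hspe1 (adjusted p = 0.0154), Herpud1 (0.0294) and Gys2 (0.0323) were called. The acute phase gene Orm1 (0.47, adjusted p = 0.0325) and the heat shock gene Hspa1a (-0.67, adjusted p = 0.0491) were also called. Of the lists above, the calls included Egr1 (0.0122), Ephx1 (0.56, adjusted p = 0.0184), Tubb4b (0.0339), Aldh1a1 (0.0365), Cyp7a1 (0.0459) and Gsta3 (0.0489). Abcb1a (0.67, adjusted p = 0.00902) was also called higher, and Cbs (-0.54, adjusted p = 0.00592) and Cyp4a3 (-0.59, adjusted p = 0.0375) were called lower. The differences were the same as in the main fit.

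None of 56 measured cell type marker genes was called. In bulk liver, fewer cells of a type and less RNA per cell cannot be told apart. The mean level of the 7 hepatocyte markers was 14.37 to 14.44 in vehicle and 14.37 to 14.39 at 153 mg/kg, near the top of the scale, which matches the label liver. Stellate cell and fibroblast markers (10 measured) averaged 7.62 to 7.97 in vehicle and 7.56 to 7.72 at 153 mg/kg, with a median difference of -0.18. Their closest member was Pdgfrb at -0.64 ± 0.15 (adjusted p = 0.0633), while the other probe sets of this gene lay between -0.13 and -0.01. Macrophage markers (7) averaged 9.24 to 9.80 and 9.48 to 9.82, and endothelial markers (7) 9.11 to 9.30 and 9.23 to 9.27. Neutrophil markers (3) averaged 5.42 to 6.29 and 5.64 to 6.05, and red cell markers (4) 8.61 to 8.73 and 8.09 to 8.79. Ranges of cholangiocyte, lymphocyte and adipocyte markers also overlapped. Those of the 5 pancreas markers did not, at 6.14 to 6.31 in vehicle and 6.01 to 6.13 at 153 mg/kg, with a median difference of -0.06. Of these Cela1 differed most (10.88 to 10.47, -0.41 ± 0.15, adjusted p = 0.285), and the other 4 lay between -0.12 and -0.01. Without the 3 arrays that stand apart, Pdgfrb and Cela1 were called (adjusted p = 0.0047 and 0.0394).

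**Figure D4:**
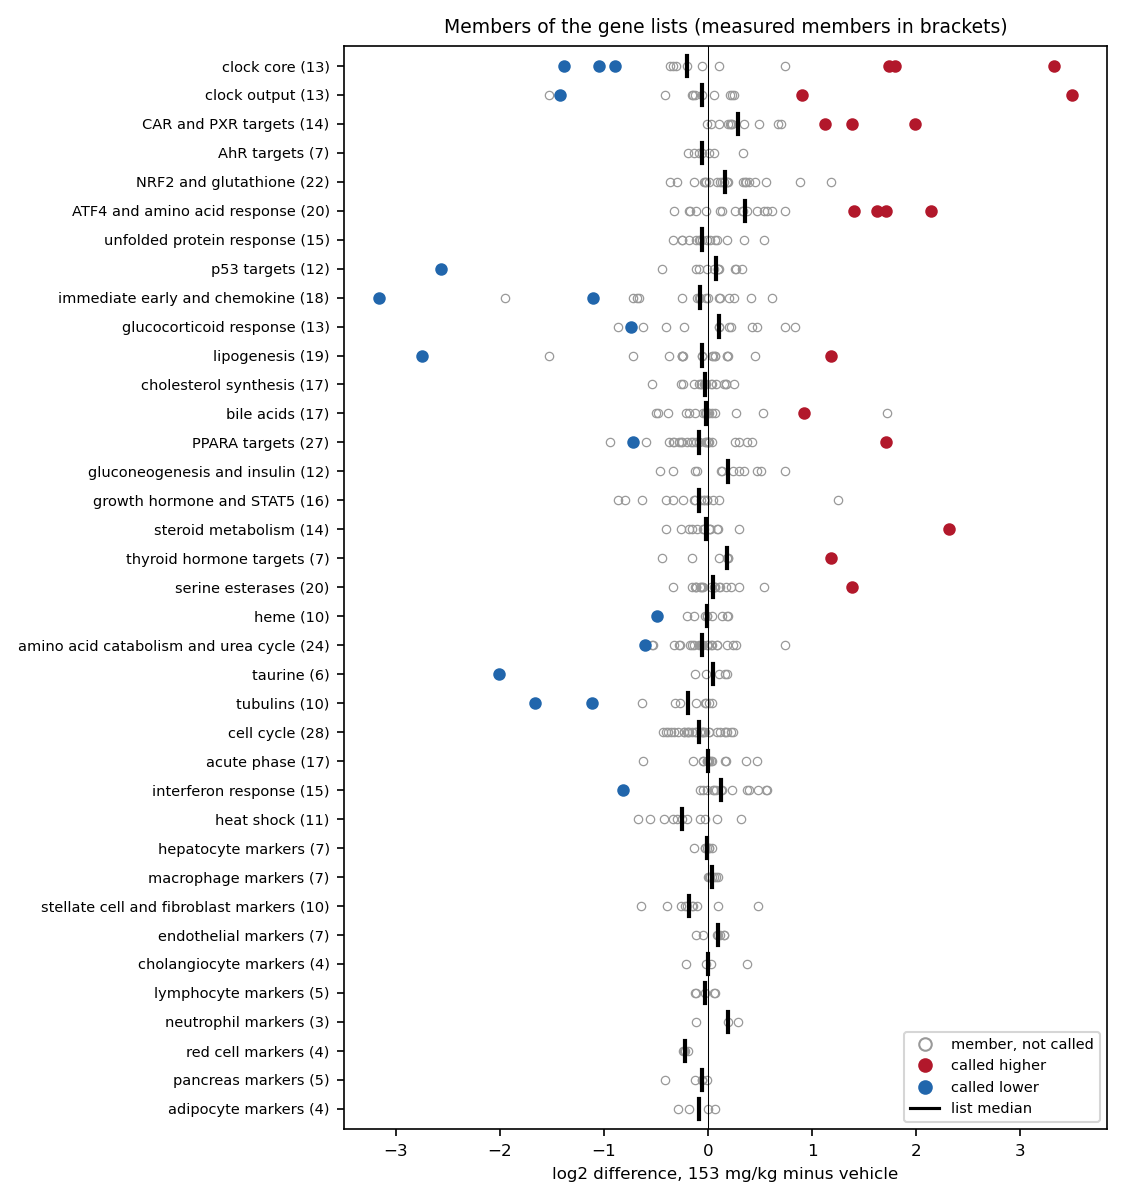
Log2 difference at 153 mg/kg (x axis) of each measured member of the 37 lists (rows, number measured in brackets), with calls as filled circles, other members as open circles and the list median as a bar. The clock core list holds 6 calls among its 13 measured members, 18 lists hold at least 1 call, and the medians lie between -0.25 and 0.36.

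Where a gene had several probe sets, the brightest stood for it. Of the 106 called genes 33 had more than 1, and in 26 of these the other probe sets all differed in the same direction. Averaging the probe sets ended the calls of Thrsp (adjusted p = 0.11) and Prodh (-0.35, adjusted p = 0.0755) as well as those given above. In that fit Fgf21 (adjusted p = 0.0543), Cxcl1 (0.0535), Sdc4 (0.0535) and Tsc22d3 (0.0586) also lost the call. These last genes have a single probe set each, and their differences did not change. Among the genes named here the exceptions in direction were Tef, Tbx3 and Chd9. The other probe sets of Syne1 ranged from -0.36 to -0.24 beside its -0.90, and that of Cdkn1a was -0.81 beside its -2.56. In 30 called genes the lower group mean was under 7.51, the median level of all genes.

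No gene passed limma's test between 153 mg/kg and either neighbouring dose. From 76.5 to 153 mg/kg 0 of 14217 genes (0%) were called and 1134 (7.98%) had an unadjusted p under 0.05, and the smallest adjusted p was 0.296. From 153 to 305.5 mg/kg 0 genes (0%) were called and 1338 (9.41%) had an unadjusted p under 0.05, with a smallest adjusted p of 0.145. With array weights, which weighted 76.5 mg/kg rat 1 at 5.036 and rat 3 at 0.267, the counts were 148 and 210. Leaving out 76.5 mg/kg rat 1 gave 9 calls between 76.5 and 153 mg/kg, and leaving out treated rat 1 or rat 3 gave 1. A missed threshold does not show that the doses act alike, so the intervals below (95%, from the same fit, unadjusted) give the sizes these rats allow.

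Several of the genes above had like means at 153 mg/kg and at the higher doses. Nr1d1 had means of 8.75, 9.19, 9.19 and 9.16 from 76.5 to 611 mg/kg, and from 153 to 305.5 mg/kg it differed by 0.00 (interval -0.51 to 0.52). Hsd17b2 had means of 11.67, 12.75, 13.02 and 12.96, with 1.08 (0.33 to 1.82, adjusted p = 0.475) from 76.5 to 153 mg/kg and 0.27 (-0.48 to 1.01) from 153 to 305.5 mg/kg. Among the falls, Cdkn1a had means of 9.11, 8.41, 8.27 and 8.45 over the 4 doses, beside 10.97 in vehicle. From 153 to 305.5 mg/kg Scd differed by 0.00 (-1.21 to 1.21) and Junb by -0.01 (-0.42 to 0.41).

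Other genes had means that went on moving between doses. Dbp had means of 8.33, 9.48, 10.19 and 10.17 from 76.5 to 611 mg/kg. Its step from 76.5 to 153 mg/kg was 1.16 (0.26 to 2.05, adjusted p = 0.505) and that from 153 to 305.5 mg/kg 0.71 (-0.19 to 1.60). Ces2c had 10.22 at 76.5 mg/kg, 10.30 at 153 mg/kg, 11.23 at 305.5 mg/kg and 11.72 at 611 mg/kg. Its step from 153 to 305.5 mg/kg, 0.93 (0.57 to 1.30), ranked among the smallest p-values of that comparison without passing (adjusted p = 0.152). Slc6a6 had means of 8.70, 8.27, 7.68 and 7.13, with a step of -0.59 (-1.27 to 0.09) after 153 mg/kg.

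Depp1, Fgf21, Sult1c2, Pdzrn3, Sdr42e1, Tbx3 and Oaf were among the called genes whose mean was highest at 153 mg/kg. They were chosen by their call at this dose, which favours a high mean there. The margin could be slight. Tbx3 had 7.92 at 76.5 mg/kg and 7.93 at 153 mg/kg, and Oaf 11.82 at 153 mg/kg and 11.76 at 305.5 mg/kg. Depp1 had means of 10.26, 10.96, 10.15 and 9.90 over the 4 doses and 9.87 in vehicle. Its 3 rats at 153 mg/kg lay above every other rat of the series, the next being 10.62 at 76.5 mg/kg, but the steps of 0.70 (0.16 to 1.23, adjusted p = 0.505) and -0.81 (-1.34 to -0.28, adjusted p = 0.359) did not pass. Fgf21 had means of 9.93, 10.04, 9.52 and 8.98, and 76.5 mg/kg rat 1 was the highest of all at 10.82. Sult1c2 had 7.85 in vehicle, 7.67 at 76.5 mg/kg, 9.09 at 153 mg/kg, 8.84 at 305.5 mg/kg and 8.48 at 611 mg/kg. The step of Sult1c2 from 76.5 to 153 mg/kg was 1.42 (0.82 to 2.01, adjusted p = 0.296). Of the genes with the smallest p-values from 153 to 305.5 mg/kg, Serpina7, which carries thyroid hormone in blood, differed by -1.18 ± 0.21, and Angptl4, an inhibitor of lipoprotein lipase, by -1.56 ± 0.28, each with adjusted p = 0.145.

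**Figure D5:**
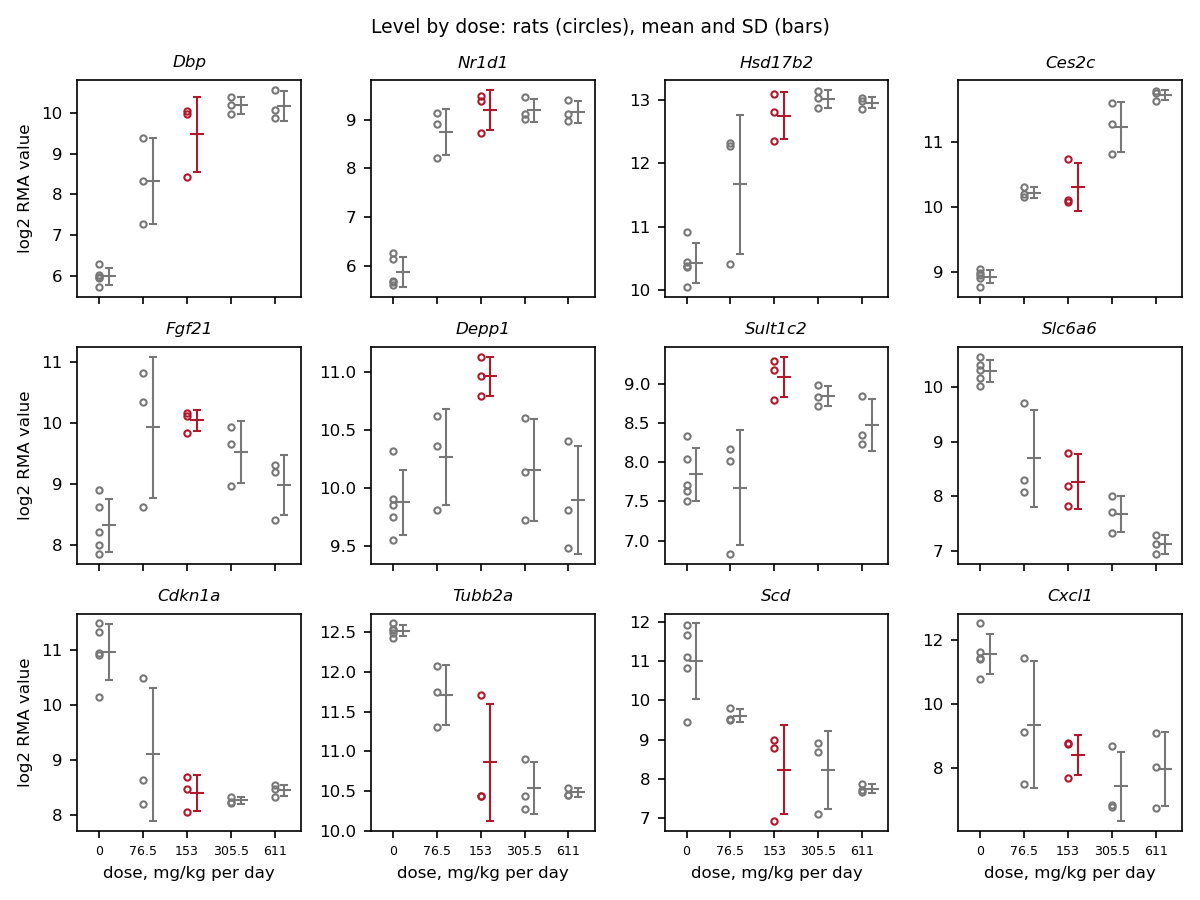
Log2 RMA value (y axes) of 12 called genes in each rat (circles) by daily dose (x axes, categories and not to scale, 0 is vehicle), with mean and SD beside them and 153 mg/kg in red. Nr1d1, Hsd17b2 and Cdkn1a have similar means at 153 mg/kg and at the 2 higher doses, while Ces2c and Slc6a6 go on in the same direction and Depp1 has its highest mean at 153 mg/kg.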

How the data were processed

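Liver RNA from 17 male rats, 1 array each, was compared between 3 rats at 153 mg/kg and 5 vehicle rats, grouped by the dose in their labels. The deposited table holds log2 values from RMA, per the submitters' processing notes, a method that corrects background, quantile-normalizes the arrays and summarizes each probe set. Software, version and genome build: not given in the sources used here. Scanner files were not analysed here. Depth does not apply to arrays.

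The table held 31099 probe sets, of which 57 were controls, 20826 carried 1 gene symbol in the 2016 platform annotation, 436 several and 9780 none. By gene ID, 20758 matched the gene reference, with 0 symbols updated. The brightest probe set stood for each of 14217 genes, of which 4525 had several. No filter on signal was used, and 0 columns of values lacked a label.

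limma 3.58.1 (R 4.3.3) fitted 1 linear model over all 17 arrays with the group as factor and eBayes with trend. P-values were adjusted by Benjamini-Hochberg over all genes, and an adjusted p under 0.05 is a call. The spread is shared by all groups, and each dose shares the 5 vehicle rats. Data were simulated for this comparison (14217 genes, 10 sets, 200 changed genes each) with independent normal noise and 1 spread per gene in all arrays. The test called 59.4%, 95.2%, 94% and 99.6% of changes of 0.5, 1, -1 and 2, and 4.18% of its calls were on unchanged genes. The real arrays had weights from 0.267 to 5.036, so these shares may not hold for them.

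Genes named were the 20 largest rises and 20 largest falls among calls with no treated rat inside the vehicle range, every called list member, and up to 3 members with the smallest p of each list without a call. Other list members and genes are named after their values were seen. The 37 lists, 10 of them cell type markers, and the comparison itself were chosen with earlier results of these data known. Alternatives covered the probe set rule, a filter on dim genes, scaling, array weights, the variance prior, a replicate block, fewer arrays, the GAPDH covariate, leaving out each rat, and stricter thresholds. Promoter windows are from RefSeq (GRCr8), searched with Python 3.11.15.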

Additional observations from a re-analysis of the deposited data

Results flagged for a closer look

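In vehicle, the Pdzrn3 level of rat 4 was 7.01, while the other 4 vehicle rats lay between 7.94 and 8.04. The gap was 0.908 of the group's range, above Dixon's critical value of 0.71 for 5 samples. It was the only 1 of the 51 sets of vehicle values examined that stood apart in this way, and chance gives about 1 in 20. Without vehicle rat 4 the rise of Pdzrn3 at 153 mg/kg was 1.09 ± 0.16 (limma adjusted p = 0.00494), beside 1.28 ± 0.22 with it.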

How the results depend on the processing

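The counts of genes higher and lower at 153 mg/kg, 58 and 48, rose to 252 and 146 with array weights, 220 and 109 with the 2 groups alone, and 209 and 105 without the 3 arrays that stand apart. With the GAPDH covariate they were 129 and 70. They fell to 23 and 26 with the replicate block, 23 and 14 at an adjusted p under 0.01, and 21 and 13 at an absolute log2 difference of at least 1. Leaving out single rats gave 18 to 49 higher and 11 to 43 lower. The labels do not say whether shared numbers pair the rats. Deviations of same-numbered rats in vehicle and at 153 mg/kg correlated at 0.007, 0.09 and 0.229. Differently numbered rats were not correlated for reference, so these values do not decide it. Of the calls with the block, 20 and 23 were among the 58 and 48. The other settings stayed within 1.5 times. Between 76.5 and 153 mg/kg, 0 calls became 148 with array weights, 1 without the 3 arrays and 0 to 9 on leaving out single rats. Between 153 and 305.5 mg/kg, 0 became 210 with array weights and 0 to 1 without single rats. The cause of these shifts was not tested. Of 9853 values of called genes and list members under alternatives, 9271 stayed on their side of the threshold, 497 lost the call and 85 gained it, and 0 called genes changed sign. Of the 106 called genes 18 kept the call in every alternative fit, the stricter thresholds aside.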

Other observations

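Several called genes belong to no list and are named here after their values were seen. Hells, a chromatin remodeller of dividing cells, rose by 1.06 ± 0.17 (limma adjusted p = 0.0052), from a mean of 7.32 in vehicle to 8.38, and kept its call in every alternative fit. Mnd1, a factor of meiotic recombination, rose by 0.87 ± 0.15 (adjusted p = 0.009; lost without treated rat 2, adjusted p = 0.101). None of the 28 listed cell cycle genes was called. The kinesin gene Kif15, outside that list, rose by 0.54 ± 0.11 (adjusted p = 0.0233), from a low mean of 5.09 in vehicle to 5.63. Its call was lost without vehicle rat 2 or 4 or any treated rat, with adjusted p from 0.0526 to 0.21. Sgpl1, which cleaves sphingosine phosphate, rose by 0.91 ± 0.16 (adjusted p = 0.00882; lost without treated rat 2, adjusted p = 0.0973). Amacr, a racemase needed for the breakdown of branched fatty acids and bile acid precursors, rose by 0.62 ± 0.09 (adjusted p = 0.00319), from 12.74 to 13.37, and kept its call in every alternative fit. The aldehyde oxidase gene Aox1 rose by 0.52 ± 0.10 (adjusted p = 0.0156), a call lost without treated rat 1 or rat 2, with adjusted p up to 0.164.

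Of the falls, Nuak2, an AMPK-related kinase, fell by 0.79 ± 0.11 (adjusted p = 0.002) and kept its call in every alternative fit. The transferrin receptor gene Tfrc went from 10.60 to 9.94 (-0.66 ± 0.15, adjusted p = 0.0432) and the nuclear receptor gene Ppard from 8.19 to 7.56 (-0.63 ± 0.13, adjusted p = 0.0312). The Tfrc call was lost without vehicle rat 1, 2, 4 or 5 or any treated rat, with adjusted p up to 0.241, and the Ppard call without vehicle rat 1, 3, 4 or 5 or any treated rat, with adjusted p up to 0.164. Cyp2c22, a P450 of the liver, had its lowest mean at 153 mg/kg: 13.86 in vehicle, 13.73 at 76.5 mg/kg, 13.25 at 153 mg/kg, 13.60 at 305.5 mg/kg and 13.54 at 611 mg/kg. It fell by 0.61 ± 0.10 against vehicle (adjusted p = 0.0084; lost without treated rat 2 or rat 3, adjusted p up to 0.0831), while neither step to a neighbouring dose passed (adjusted p = 0.359 and 0.37).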
